A study of Mus musculus with 2 samples.

Results

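Class switch recombination and the joining of broken DNA ends share a set of enzymes, and 8 of their genes were followed across maps of NRF1 binding in a mouse B-cell line. The genes were listed by name because the line is a model of class switching: Ung, Msh6, Prkdc, Lig4, Xrcc4, Xrcc5, Xrcc6 and Trp53bp1, that is 8 of 21321 protein-coding genes with a start site. The maps came from 2 chromatin immunoprecipitation libraries, precipitated with anti-NRF1, of CH12.LX cells, an immortalized B-cell lymphoma line of the mouse strain B10.H-2aH-4bp/Wts, labelled female. They are biological replicates 1 and 2 of 1 group, from separate samples of a line that goes back to 1 donor, and no treatment is named, so the cells were not labelled as induced to switch. The design holds no second group and a control library was not analysed here, so every value below is a description with no test between samples, and the libraries' read depth is unknown.

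NRF1 activates transcription and sits mostly at promoters rich in CpG, many of them of genes for mitochondrial and other housekeeping functions. Class switching starts from uracils in the switch regions of the antibody heavy chain locus. UNG removes the uracil and MSH6 takes part in recognising the U:G mismatch, which leads to breaks. 53BP1, encoded by Trp53bp1, protects the broken ends, and Ku70 and Ku80 (Xrcc6 and Xrcc5) load on them and recruit the kinase DNA-PKcs (Prkdc). DNA ligase IV (Lig4), held by its partner XRCC4, seals the join.

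The sequences in which the peaks sat show how far each promoter resembled the known NRF1 site. Promoter windows of RefSeq (GRCm38.p6, the mm10 assembly, 250 bases before a start to 50 after it) were at hand for 7 of the 8 genes, Prkdc being the other one. They were searched on both strands for the NRF1 consensus in its forms GCGCATGCGC and GCGCACGCGC, with up to 2 mismatches. Only Lig4 and Xrcc5 held a match with at most 1 mismatch, which 13.0% of 21045 promoter windows of coding genes held, and only Lig4 an exact one, held by 3.17%. The windows of both Lig4 starts and of Xrcc5 are shown because their peaks were strong, and that of Xrcc4 because it had no peak. Each is written on the strand of its gene, and capitals mark the matches with the fewest mismatches in that window.
Lig4, outer start (chr8:9977631-9977930, minus strand, exact match): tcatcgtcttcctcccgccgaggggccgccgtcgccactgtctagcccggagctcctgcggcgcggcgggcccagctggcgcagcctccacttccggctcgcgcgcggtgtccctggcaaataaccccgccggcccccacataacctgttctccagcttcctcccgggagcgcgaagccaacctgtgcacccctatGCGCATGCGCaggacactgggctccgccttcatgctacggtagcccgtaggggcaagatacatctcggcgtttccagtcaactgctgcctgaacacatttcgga
Lig4, inner start (chr8:9976262-9976561, minus strand, 2 matches with 1 mismatch each): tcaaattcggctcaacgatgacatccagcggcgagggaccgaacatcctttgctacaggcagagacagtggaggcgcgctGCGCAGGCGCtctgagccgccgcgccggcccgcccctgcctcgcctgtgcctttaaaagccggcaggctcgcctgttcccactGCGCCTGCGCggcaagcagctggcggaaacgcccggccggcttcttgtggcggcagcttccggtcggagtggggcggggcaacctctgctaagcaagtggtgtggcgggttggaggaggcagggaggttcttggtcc
Xrcc5 (chr1:72307171-72307470, plus strand, 1 match with 1 mismatch): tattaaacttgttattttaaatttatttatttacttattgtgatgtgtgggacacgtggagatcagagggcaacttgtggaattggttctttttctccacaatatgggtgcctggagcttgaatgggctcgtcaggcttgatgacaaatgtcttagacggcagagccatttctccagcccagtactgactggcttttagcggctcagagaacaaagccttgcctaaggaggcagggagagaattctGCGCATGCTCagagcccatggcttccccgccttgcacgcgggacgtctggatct
Xrcc4 (chr13:90089559-90089858, minus strand, 2 matches with 2 mismatches each): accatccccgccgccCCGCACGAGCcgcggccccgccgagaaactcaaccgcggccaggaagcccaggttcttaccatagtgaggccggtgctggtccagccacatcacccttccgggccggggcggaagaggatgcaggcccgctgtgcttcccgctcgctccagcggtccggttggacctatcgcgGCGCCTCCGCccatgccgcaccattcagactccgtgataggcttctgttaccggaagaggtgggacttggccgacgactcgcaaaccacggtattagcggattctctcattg

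Ung and Xrcc6 had weaker peaks and no match closer than 2 mismatches, and for these the match nearest to the summit is shown with 25 bases to either side, on the plus strand, which is the strand of both genes.
Ung (site at chr5:114130370-114130379): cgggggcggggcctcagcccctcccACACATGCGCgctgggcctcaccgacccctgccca
Xrcc6 (site at chr15:82016218-82016227): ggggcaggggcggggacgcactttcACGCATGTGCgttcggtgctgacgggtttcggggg
Msh6 and Trp53bp1 each held 1 match with 2 mismatches, farther from the summit. Matches of that kind were common, as 35.8% of all 21045 windows held one or a closer one.

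A gene is called occupied here when the summit of a peak in the authors' optimal set lay within 1000 bp of a start site. That set was selected by irreproducible discovery rate, which keeps peaks whose ranks recur between lists of peaks. Whether the lists compared for the optimal set were those of the replicates was not established here. Of the 8 genes, 6 were occupied: Ung, Msh6, Prkdc, Lig4, Xrcc5 and Xrcc6. Over all coding genes the share was 39.2% (8357 of 21321). Xrcc4 and Trp53bp1 had no optimal summit in that window. The strongest promoter signals of the 6 had a median of 446 and ran from 52.4 to 660, beside a median of 85.6 over all 8357 occupied genes (quartiles 35.9 and 418). Signal is the authors' caller's own value for a peak and its scale is not stated in the sources used here. The promoter peaks of these 6 genes had the same signal in the optimal set as in the relaxed list of the pooled replicates. Within the optimal set, 12698 of 17547 peaks (72.4%) were exactly 344 bp wide, and among these genes the Msh6 peak was.

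**Figure D1:**
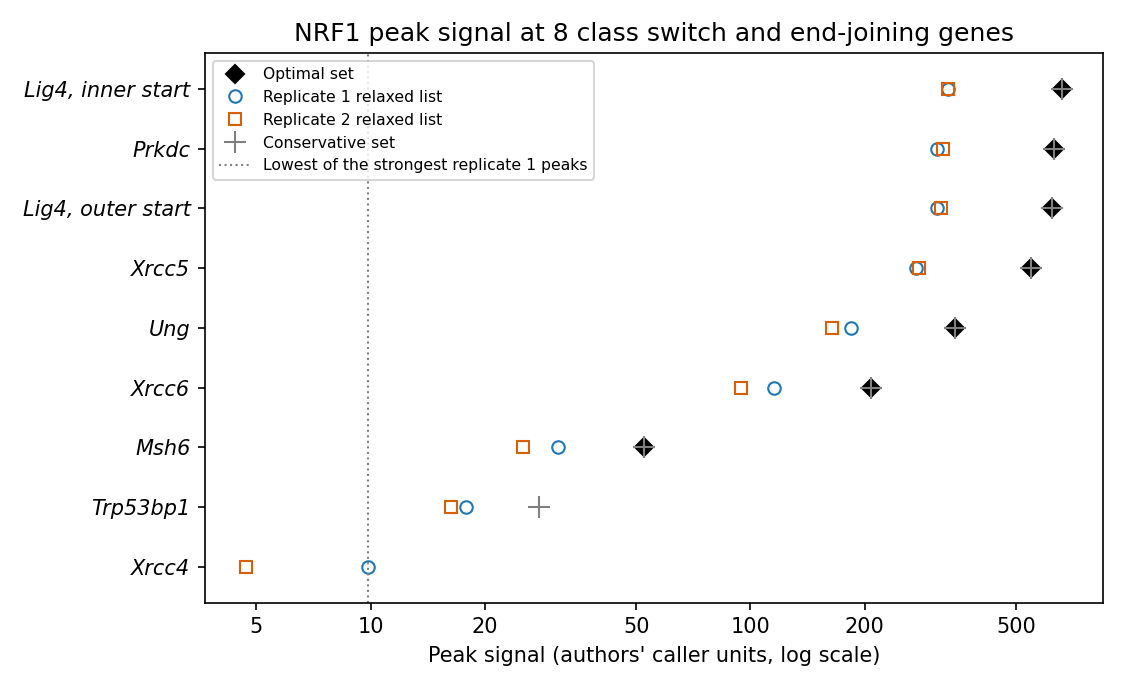
Signal of the promoter peak of each gene in the optimal and conservative sets and in the relaxed list of each replicate, on a log axis, with no error bars since each point is 1 peak. The Lig4, Prkdc and Xrcc5 peaks lie at 547 and above in the optimal set, Msh6 at 52.4, and Trp53bp1 and Xrcc4 have no optimal point. The dotted line is the lowest signal, 9.83, among the 17547 strongest peaks of replicate 1.

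Lig4, the ligase of end joining, carried the strongest signal of the 8 genes, at its inner start, and had a peak at each of 2 starts. The RefSeq promoter table gives it an outer start at 9977680 and an inner one at 9976311 on chromosome 8, 1369 bp apart. The inner peak (chr8:9976218-9976641) had a signal of 332 in replicate 1 and 332 in replicate 2 (332 ± 0.598, SD, n = 2) and 660 in the optimal set. It ranked 52 of 17547 peaks there and was the widest of these promoter peaks at 424 bp. The outer peak (chr8:9977557-9977909) had 309 and 317 in the replicates (313 ± 5.47, SD, n = 2) and 622 in the optimal set, rank 277. The replicates therefore gave both peaks at nearly equal height. The summit of the outer peak, 45 bp upstream of the start, fell within the exact consensus match printed above. The inner summit, 122 bp upstream of its start, fell between the matches printed for that window, 35 bp from the nearer end of the closer match and 39 bp from that of the other. Each replicate's relaxed list held 3 peaks within 1000 bp of either start, and these 2 were the only ones of them in the optimal set. At the other 5 occupied genes no second relaxed peak within 1000 bp exceeded 9.55 in either replicate.

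Xrcc5, the gene of Ku80, had 272 in replicate 1 and 278 in replicate 2 (275 ± 4.49, SD, n = 2) and 547 in the optimal set (chr1:72307281-72307584, rank 1063). Its summit lay 13 bp inside the gene and 8 bp past the match with 1 mismatch. This match was the only one with up to 2 mismatches in a window that was otherwise poor in CpG. The window held 9 CpG and was 48.0% GC, where the median over all windows was 13.0 CpG and 56.7% GC. Over windows with an optimal peak the medians were 23.0 CpG and 62.3% GC. The window of Xrcc6, the gene of the partner Ku70, held 30 CpG and was 64.3% GC.

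Xrcc6 had 115 in replicate 1 and 94.2 in replicate 2 (105 ± 14.9, SD, n = 2) and 208 in the optimal set (chr15:82016125-82016350, rank 3562). The gap between the Ku genes was larger than the spread between replicates of either, as both Xrcc5 values exceeded both Xrcc6 values. The Xrcc6 summit lay 141 bp upstream of the start and 1 bp past the match with 2 mismatches printed above. It was also 8 bp upstream of the start of Desi1, a gene on the opposite strand. RefSeq's gene record for Xrcc6 begins 28536 bp farther out than this start, and with that outermost start alone Xrcc6 would count as unoccupied.

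Prkdc, which encodes the DNA-PK catalytic subunit, had 309 in replicate 1 and 322 in replicate 2 (315 ± 9.53, SD, n = 2) and 628 in the optimal set (chr16:15637688-15638056, rank 235). Its start was taken from the RefSeq gene record, and the summit lay 419 bp inside the gene from there, the farthest of the 7 promoter peaks of these genes. Mcm4, a subunit gene of the replicative helicase, starts 44 bp away on the opposite strand. The next optimal peaks outward, near Ung, lay 2192 bp or more from a start, so no gene stood close to the 1000 bp limit.

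Ung, the uracil glycosylase gene, had 184 in replicate 1 and 164 in replicate 2 (174 ± 14.4, SD, n = 2) and 345 in the optimal set (chr5:114130238-114130510, rank 2669). The summit lay 50 bp upstream of the start and 6 bp past the match with 2 mismatches. Upstream of Ung, 3 more optimal peaks had signals of 29.8, 7.93 and 10.9 at 2192, 2660 and 2864 bp from its start. The peaks of 7.93 and 10.9 overlapped each other, so they need not be separate sites. All 3 lay within 1000 bp of the start of Alkbh2, the gene of a DNA dealkylation repair enzyme on the opposite strand, the strongest only 25 bp from it.

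Msh6, the mismatch recognition gene, was the weakest occupied gene of the 8. It had 31.1 in replicate 1 and 25.2 in replicate 2 (28.2 ± 4.20, SD, n = 2) and 52.4 in the optimal set (chr17:87974694-87975037, rank 7045). The replicate summits were 191 bp apart, at 78 and 269 bp upstream of the start, whereas those of the other 5 occupied genes were 3 to 20 bp apart. The window was 71.7% GC with 37 CpG, the highest of the 8 windows for both, and its match with 2 mismatches lay 212 bp from the optimal summit. Msh6 ranked 5168 among the 8357 occupied genes by strongest promoter signal, against 50 for Lig4, 223 for Prkdc, 1041 for Xrcc5, 2485 for Ung and 3120 for Xrcc6.

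Trp53bp1 and Xrcc4 were at the low end, and the lists did not treat them alike. Trp53bp1 had 17.8 in replicate 1 and 16.3 in replicate 2 (17.0 ± 1.04, SD, n = 2) within 1000 bp of its start. The replicate summits were 132 bp apart, 16 bp upstream of the start in replicate 1 and 116 bp inside the gene in replicate 2. The relaxed list of the pooled replicates had a peak of 27.7 there. The conservative set, the smaller of the selected sets, kept this peak (chr2:121271195-121271538, summit 40 bp inside the gene), while the optimal set did not. Of 15936 conservative peaks, 2173 (13.6%) overlapped no optimal peak, the one at Trp53bp1 among them. The strongest promoter signals of all occupied genes began at 4.854 and had a 15th percentile of 27.31, below the 27.7 of Trp53bp1. An optimal peak of 127 did lie inside the gene record, 18197 bp upstream of the start used, and 2 bp from the start of Map1a, which encodes a microtubule-associated protein. Xrcc4 had 9.84 in replicate 1 and 4.69 in replicate 2 (7.27 ± 3.64, SD, n = 2), with summits 308 bp apart. Neither the optimal nor the conservative set had a peak there. Its start lies 59 bp from that of Tmem167 on the opposite strand.

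The 17547 strongest peaks of each replicate alone were also assigned. Replicate 1 occupied all 8 genes, where it occupied 40.5% of all coding genes, and replicate 2 occupied 7, where it occupied 39.0%. The replicate 1 call of Xrcc4 rested on a signal of 9.84, just above the lowest signal of that selection, 9.83. The conservative set occupied 7 of the 8 genes and 37.9% of all coding genes, adding Trp53bp1. With the outermost start of each RefSeq gene record as the only start, 5 of the 8 genes and 36.8% of all coding genes were occupied, Xrcc6 being lost. Summits within 500 or 2000 bp of a start occupied the same number of these genes, 6, against 37.1% and 40.8% of all coding genes. The 8773 strongest optimal peaks also occupied 6, against 28.7%.

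**Figure D2:**
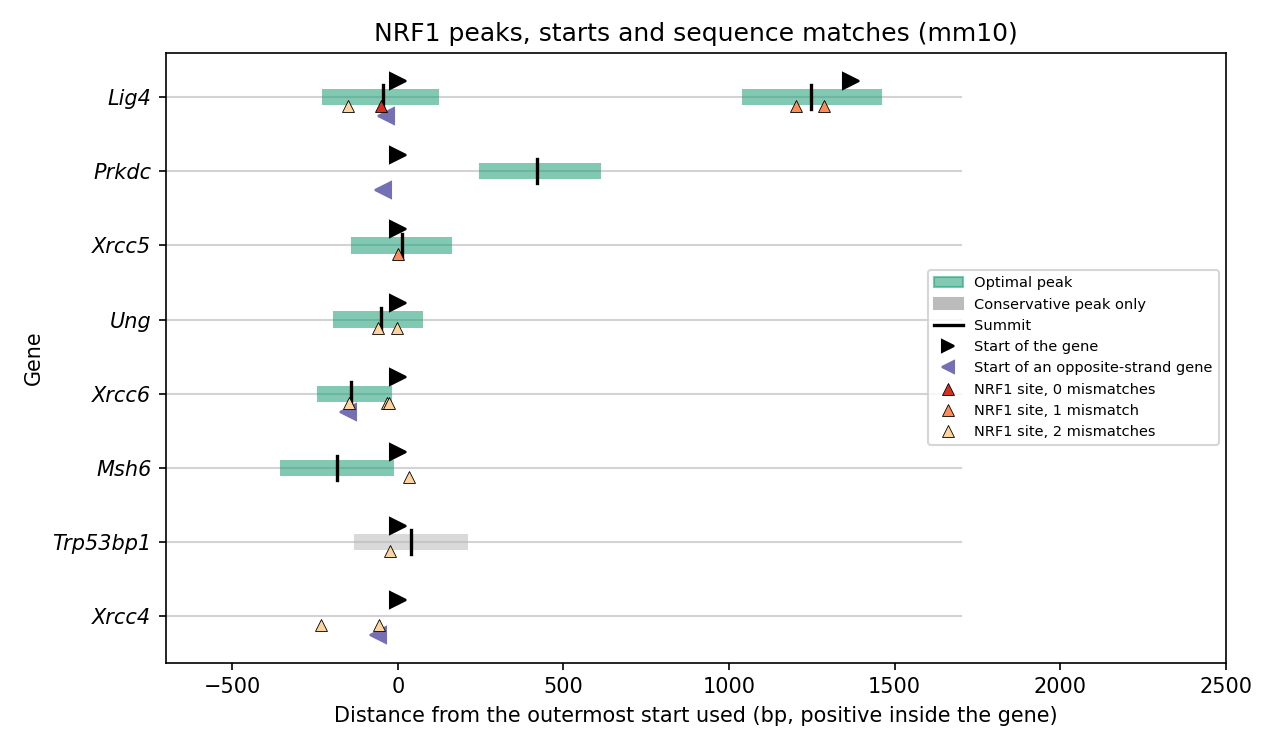
Peaks, summits, starts and NRF1 sequence matches around each gene in mm10, as distance in bp from the outermost start used, with the gene running to the right. The summits of Lig4 (outer start), Xrcc5, Ung and Xrcc6 sit within 8 bp of a match, and the Prkdc peak begins inside the gene, whose window was not searched.

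The distance of match to summit was set beside all promoters. Where the closest match had 2 mismatches and the summit lay in the window, 670 of 1702 promoters (39.4%) had such a match within 10 bp of the summit, as Ung and Xrcc6 did. The share was 63.2% of 1361 promoters with 1 mismatch, as at Xrcc5, and 60.2% of 585 with an exact match, as at the outer Lig4 start. Promoter signal was higher with a closer match. Over promoters with an optimal peak, the median was 553 with an exact match (611 promoters), 441 with 1 mismatch (1573), 69.6 with 2 (2701) and 45.4 with more (3252). Both Lig4 starts and Xrcc5 stood above the median of their class, as did Ung and Xrcc6, while Msh6 was below that of its class. Sites of other promoter factors were sought as well. The SP site GGGCGG was in 6 of the 8 windows, beside 46.7% of all windows and 69.9% of those with an optimal peak. The ETS site CCGGAAGT was only at the outer Lig4 start (5.20% and 10.1%, in the same order). The NFY site CCAAT was at Msh6, Xrcc5 and Xrcc6 (38.5% and 38.5%). An E2F site (TTTGGCGC or TTTCCCGC) was at Msh6 and Xrcc6 (2.04% and 3.60%). The YY1 site AAGATGGC (3.07% and 5.92%) and the CREB site TGACGTCA (2.26% and 3.77%) were in none. All were sought on both strands, and an SP or E2F match can overlap another GC-rich match.

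**Figure D3:**
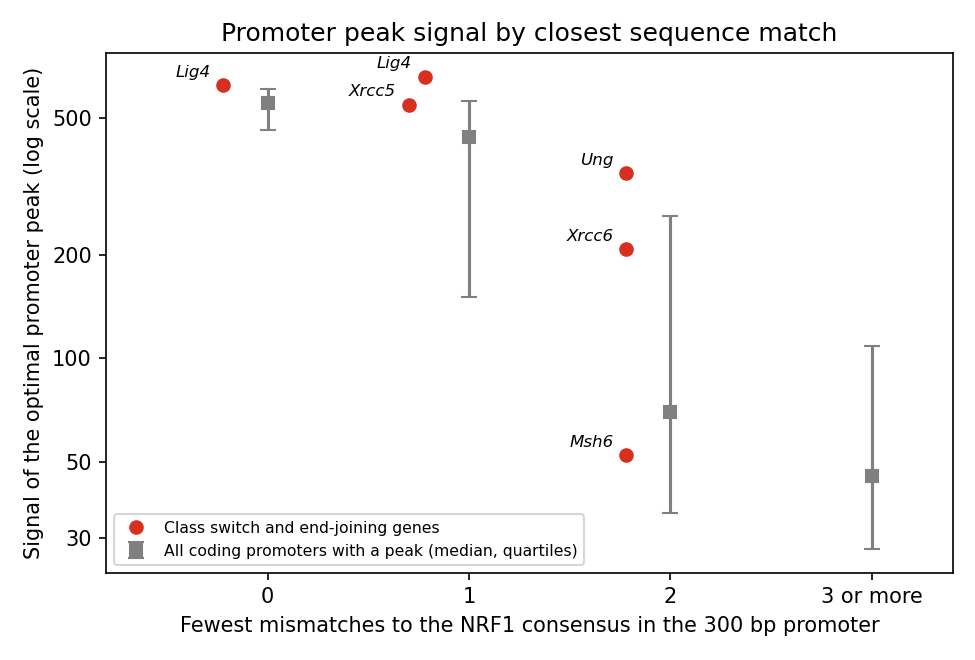
Optimal promoter signal, on a log axis, against the fewest mismatches to the NRF1 consensus in the promoter window. Red points are the windows of these genes that had a peak, and grey squares with bars are the median and quartiles of all coding promoters with a peak, which fall from 553 with an exact match to 45.4 with 3 or more mismatches.

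Several of these genes face another gene. The peaks of Prkdc and Xrcc6 and the outer peak of Lig4 lay within 1000 bp of the start of another coding gene, namely Mcm4, Desi1 and Abhd13, each on the opposite strand with starts 44, 149 and 37 bp apart. The stronger, inner Lig4 peak was not shared in this way. That is 3 of the 6 occupied genes. Of all occupied genes, 21.3% had a promoter peak within 1000 bp of the start of another coding gene, whatever its strand. The outer Lig4 summit was 8 bp inside Abhd13, and a shared peak cannot be assigned to either gene from these data. The unoccupied Xrcc4 also has an opposite-strand neighbour, Tmem167, which had no optimal promoter peak either.

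The peak set on mm9, which the authors made from both replicates with no control named among its inputs, was read with GENCODE vM1 starts and is on another signal scale. It occupied 4 of the 8 genes, against 34.9% of all coding genes with such a start. Lig4 had 7226 at the inner start (chr8:9976182-9976672, summit in an intron, rank 200 of 11216) and 6693 at the outer one (chr8:9977528-9977944, summit outside the gene, rank 233). Xrcc5 had 2331 (chr1:72353822-72354190, rank 1267), with the summit in the UTR. Ung had 681 (chr5:114580225-114580545, rank 2713) and Msh6 52.1 (chr17:88374050-88374425, rank 8252), both with the summit outside the gene. The order Lig4, Xrcc5, Ung, Msh6 was thus that of the optimal set. Prkdc and Xrcc6 had no mm9 promoter peak, and their nearest mm9 summits were 43388 and 26921 bp away. Among genes that also had an mm9 start, of 3081 with an optimal promoter signal of at least that of Xrcc6, 199 (6.46%) had none in the mm9 set, and of 220 at or above Prkdc, 25 (11.4%). Why these peaks are missing there was not tested.

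Other genes of the pathway were taken from a list of 56, of which 47 (83.9%) were occupied, against 39.2% of all coding genes (8357 of 21321), with a median strongest signal of 135 and a range from 23.4 to 656. All 5 mismatch repair genes on it were occupied, with a median of 554. The lowest of them was Exo1, an exonuclease gene, with 51.9, close to the 52.4 of Msh6. Of 8 genes of classical end joining, 7 were occupied, with a median of 75.0. Nhej1, the gene of XLF, had 558 (286 and 274 in the replicates), and Dntt, terminal transferase, had no optimal peak. Of 16 genes of the break response, 15 were occupied, with a median of 135. Rnf8, a ubiquitin ligase of break signalling, had 639 (310 and 334), and Atm, the break-activated kinase, had 619 (307 and 315). The shieldin genes Shld3 and Shld2, which act with 53BP1, had 634 (315 and 324) and 619 (304 and 316). Of the other shieldin genes on the list, Shld1 had 367 (184 and 184). Mad2l2 had no optimal peak, with 13.6 and 9.19 in the replicates. Trp53bp1 had no optimal peak either, but had a conservative one.

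The counts of the remaining roles also stand beside the 39.2% of all coding genes. Of 9 genes of other ligation and end processing, 8 were occupied with a median of 290. Xrcc1, a scaffold of single-strand break repair, led them with 609 (311 and 300 in the replicates). Of 8 genes under transcription and RNA processing, 7 were occupied, with a median of 95.4. This role also held the genes of replication protein A, which binds single-stranded DNA. Of 8 genes of deamination and uracil repair, 5 were occupied, with a median of 63.7. Mbd4, a thymine and uracil glycosylase gene, had 656 there (327 and 331), the highest of the list, while Apex2, an AP endonuclease gene, and Hmces, whose protein shields abasic sites, had no optimal peak. The strongest relaxed peaks there had 7.62 in replicate 1 and 10.1 in replicate 2 for Apex2, and 8.02 and 6.22 for Hmces. Both V(D)J recombinase genes, Rag1 and Rag2, were unoccupied. Exo1, Nhej1, Shld1, Mad2l2, Rag1 and Rag2, like Alkbh2, Map1a and Tmem167 above, were singled out after their values were seen.

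**Figure D4:**
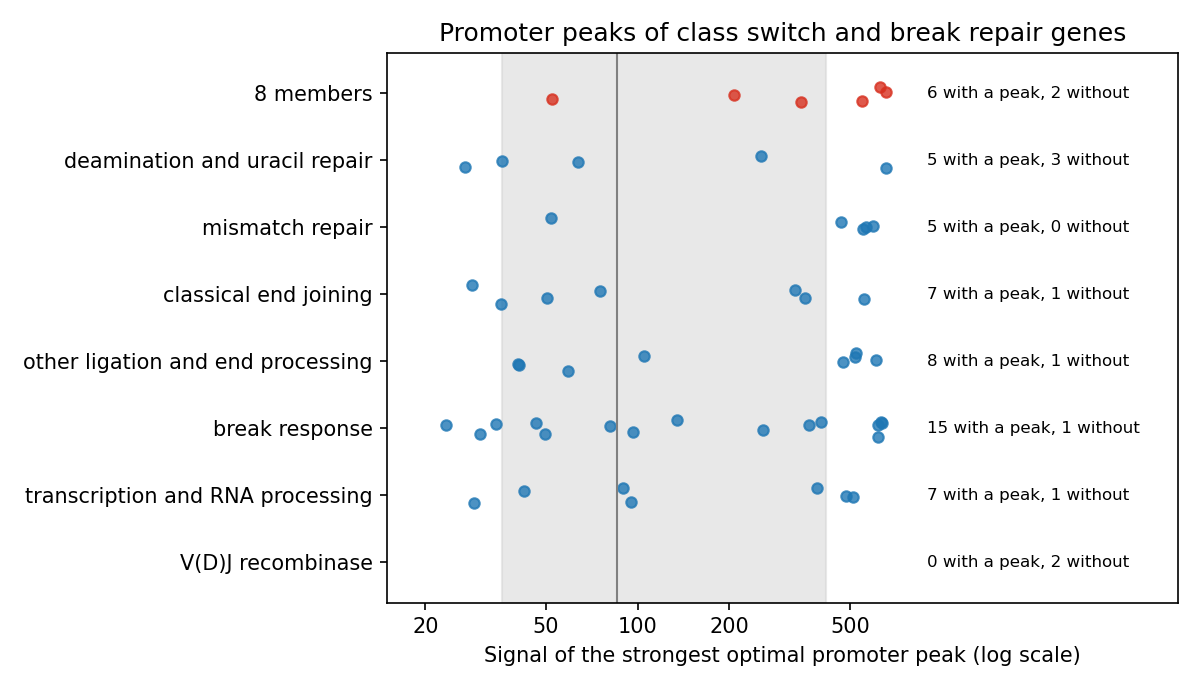
Signal of the strongest optimal promoter peak, on a log axis, for the 8 genes (red) and the 56 other pathway genes by role (blue, 1 point per occupied gene, spread vertically only for legibility). The grey band and line are the quartiles and median, 85.6, of all 8357 occupied coding genes. Mismatch repair has 4 of its 5 points above the band. The transcription and RNA processing role includes the genes of replication protein A.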

How the data were processed

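NRF1 peak lists were taken from the authors. Their deposited file notes name an mm10 relaxed list (peaks and background) per replicate and one for the pool of both, all called against a control, and record that the authors selected a conservative and an optimal set by irreproducible discovery rate; each relaxed list held 300000 peaks. The notes also name an mm9 set made from both replicates. The sources used here give no aligner, caller, threshold or read number. The deposited signal value of each peak served to describe and rank peaks within a list, and signals on mm9 and mm10 were never compared. The deposited rank score of the selected sets was 1000 for all promoter peaks of the 8 genes.

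Peaks on chromosomes 1 to 19 and X were kept (17547 optimal, 15936 conservative and 11216 on mm9). Starts on mm10 were those of the RefSeq promoter table for 17274 genes, and for 4047 others the start of the RefSeq gene record with the strand of GENCODE. Another 310 of 21631 coding genes had no strand and were left out. Replicate values are the strongest relaxed peak overlapping the optimal peak, or, without one, the strongest within 1000 bp of a start. Replicates taken alone used their 17547 strongest peaks. No coordinate was converted between builds. Prkdc was not searched for sites. Peak assignment and motif search were tested on simulated data.

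Python 3.11.15, pandas 2.3.3, numpy 2.4.6 and matplotlib 3.10.9 were used. All 8 listed genes are named. Of the other pathway genes, the 6 strongest and the first 4 in alphabetical order without a peak are named, except those not reported here, and 1 symbol of that list matched no gene. The genes and lists were chosen with earlier results of these data known.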

Additional observations from a re-analysis of the deposited data

How the results depend on the processing

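The count of 6 occupied genes ran from 4 in the mm9 set to 8 with replicate 1 alone, and was 6 with promoters of 500 or 2000 bp and with the 8773 strongest optimal peaks. From the replicates taken alone it was 7 to 8. The outermost-start setting was added after seeing the data and gave 5. The count of other pathway genes ran from 39 to 49 beside 47 of 56, where 39.2% of all coding genes were occupied. The 39 came with the 8773 strongest optimal peaks (28.7% of all coding genes) and the 49 with replicate 1 alone (40.5%). The mm9 set gave 40 of 54 (34.9%). The median signal of 446 was 221 to 228 in the relaxed list of a replicate alone, where all 6 genes were lower than in the optimal set. Their optimal signals equalled those in the relaxed list of the pooled replicates, so these medians set 1 library beside the pool of both. The cause of the difference was not tested. With up to 1 mismatch 2 genes had a site (also within 150 bp of a start or summit), with the exact consensus 1, and with up to 2 mismatches 7. These counts are out of the 7 genes searched, which leave out Prkdc. Of all 21045 promoter windows of coding genes, 13.0%, 3.17% and 35.8% held such a match, in the same order. Depth is unknown, so no interval was computed. No paired analysis was possible because the design has 1 group.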
